A study of Mus musculus with 4 samples.

Results

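The genes described here encode the subunits of the receptors for glutamate and GABA, the main excitatory and inhibitory transmitters of the retina. They are 40 protein-coding genes of the 48897 genes in the deposited table and were chosen by symbol alone, with no measured value in the rule. The set holds the AMPA (Gria), kainate (Grik), delta (Grid) and NMDA (Grin) subunits, all metabotropic glutamate receptors (Grm) other than Grm6, and the alpha, beta, gamma and rho subunits of the GABA-gated chloride channels (Gabra, Gabrb, Gabrg, Gabrr). Of the 40 genes, 39 had enough reads to be tested. Gabra6, an alpha subunit known from cerebellar granule cells, had 0 counts in all 4 libraries. A count of 0 in a single library still allows an expected count of up to about 3. Counts and medians over the set cover all tested genes, and 34 of them are given singly.

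Ionotropic receptors are channels that several subunits form together, so that the set of subunits a neuron makes decides how its channels open, close and pass ions. Metabotropic receptors act through G proteins and often sit on the terminals that release the transmitter. In the mouse retina, synapses of the inner layer form in the first postnatal weeks, and the exchange of Grin2b for Grin2a is well known in maturing neurons of the brain.

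The libraries were made from retinas of C57BL/6 mice (C57BL/6J in the study's methods), given as wild type, at postnatal day 9. At postnatal day 3, the left eye received 0.6 nmol of an antagomir, a modified antisense oligonucleotide, against miR-124-3p in 1 μl (anti-miR-124 group), and the right eye of the same animals a scrambled sequence at the same volume and concentration (NC group). Each group had 2 RNA-Seq libraries of retinas pooled from several litters. The study's methods give a pool size for a group. They speak of 1 biological replicate where the retinas are described and of 2 where expression is compared. Whether the libraries of a group were separate pools is thus unclear, so p-values measure only the spread between these libraries. Each number in the column names occurs once for a right eye and once for a left eye, which gives pairs A and B. Whether a shared number marks the same set of animals is not stated in the sources used here. The libraries are written NC-A, anti-A, NC-B and anti-B. The question of the comparison was which transcripts differ after the knockdown of a microRNA that is abundant in retina.

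The libraries held between 16317239 and 18726963 counts, of which the 40 receptor genes took between 0.142% and 0.169%. Retinal identity genes were present at similar levels in all 4 libraries (Rax, Six3, Six6 and Crx, together between 2116 and 2368 TPM, counts per gene length scaled to a fixed total). NC-A stood apart in lens transcripts, with a summed lens level of 65104 TPM against 131 to 185 TPM in the others. Anti-B stood apart in microglial and glial stress transcripts, with 484 counts of C1qb against 123 to 174 in the others and 572 counts of Serpina3n against 13 to 17. In the sum of the wider reactive gliosis list NC-A stood between anti-B and the others. The same held for Gfap, with 1496 counts against 3764 in anti-B, 720 in anti-A and 631 in NC-B. Not every gene of the list did so: Stat3 had 1163 counts in NC-A, 1106 in anti-A and 1158 in NC-B, against 2004 in anti-B. Gene counts of this kind do not measure a mature microRNA, so the knockdown itself was not checked here. The study's methods state that RT-qPCR had shown a significant knockdown before sequencing.

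No receptor subunit gene passed the test between the anti-miR-124 and NC groups. In edgeR's quasi-likelihood test over 17766 genes, 0 of the 39 tested subunit genes had an adjusted p under 0.05, and the smallest adjusted p among them was 0.989 (all genes: 0.0% called). At an unadjusted p under 0.05 the count was also 0 of 39, against 3.91% of all genes, and DESeq2 gave 0 subunit genes by either rule, against 1.11% of all genes at an unadjusted p under 0.05. Fold changes of anti-miR-124 over NC on the log2 scale ran from -0.16 for Gria2 to 0.37 for Gabrr2, with a median of -0.02 over the 39 genes and of 0.0007 over all genes tested. A gene that misses the threshold with 2 libraries in each group is not shown to be equal between the groups.

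The 2 pairs of libraries went opposite ways. Anti-A was above NC-A for 38 of the 39 genes, against 48.2% of all genes, and anti-B was below NC-B for 33 of 39, against 49.4% of all genes. The median log2 ratio of the subunit genes was 0.19 in pair A and -0.23 in pair B, while the medians of all genes were -0.01 and 0.003. A total of 33 subunit genes (84.6%) were higher in pair A and lower in pair B, against 25.5% of all genes. Only Grik4 had the opposite order, lower in pair A and higher in pair B, which 27.8% of all genes had. These genes share libraries, so they are not independent of each other. The pairs rest on the shared number alone. By chi-square per degree of freedom of their counts, the most alike libraries were anti-A and NC-B (3.44), which share no number. The value was 25.3 within pair A, where NC-A carries lens transcripts, and 9.00 within pair B.

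Few subunit genes kept one direction. The antagomir side was the higher one in both pairs for 5 genes (Gabra4, Gabrr2, Grik2, Grin2a and Grin3b), against 22.8% of all genes, and the lower one in both for 0, against 24.0%. Both anti-miR-124 libraries lay above both NC libraries for 3 genes, Gabrr2, Grin2a and Grin3b, against 16.5% of all genes. Both lay below for 0 genes, against 16.8%. The 3 genes that separated the groups upward were among the least abundant of the set, at 15 to 64 counts per library.

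**Figure D1:**
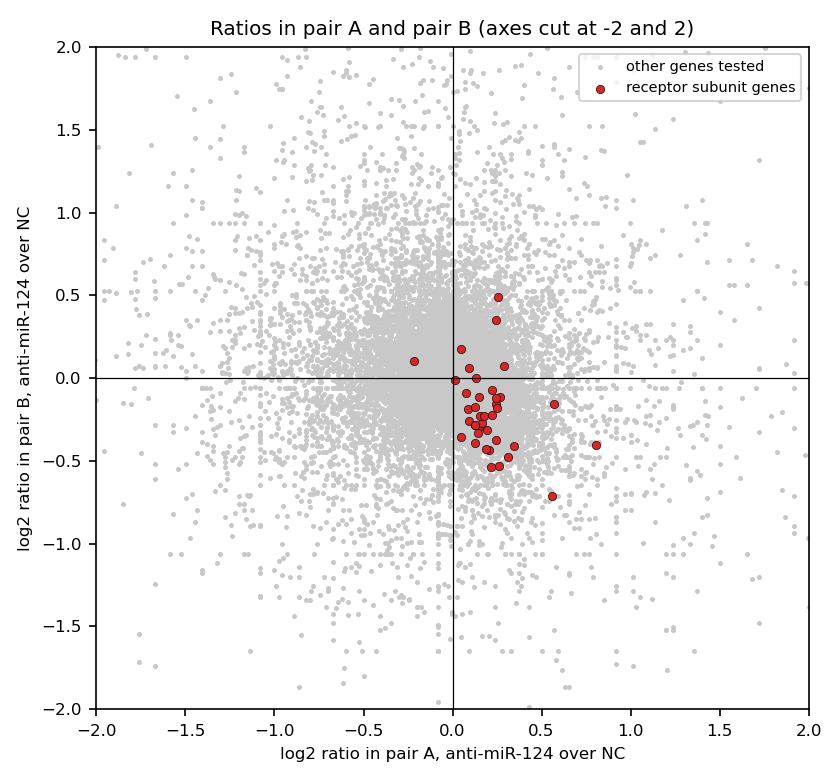
Each point is a gene, placed by its log2 ratio of anti-miR-124 over NC (TMM-normalised counts) in pair A on the horizontal axis and in pair B on the vertical axis, with 39 receptor subunit genes in red and the other genes tested in grey; points beyond -2 or 2 are not drawn. Of the red points, 33 lie at the lower right, higher in pair A and lower in pair B.

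Levels of a gene across libraries are given as CPM, its count scaled to a common library size with TMM factors. Summed over the 40 genes, the level was 1488 CPM in NC-A and 1663 in anti-A, a ratio of 1.12, and 1682 CPM in NC-B and 1414 in anti-B, a ratio of 0.84. NC-B and anti-A were thus the high libraries, the other 2 were the low ones, and the groups overlapped. In bulk retina, fewer cells of a type and less RNA per cell cannot be told apart.

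Gabrr1, Gabrr2 and Grik5 stand for 3 of the courses seen, and the sequence upstream of a RefSeq start is shown for each. Gabrr1, the main rho subunit of the GABA-C type receptor of bipolar cells, went up in pair A and down in pair B. Its neighbour Gabrr2 was higher in both pairs, but at 15 to 22 counts per library, with 0 inside both counting intervals. Grik5, the high-affinity kainate subunit, stayed level in all 4 libraries. The windows are from RefSeq on GRCm38.p6, on the sense strand, and run up to the RefSeq start or to the first annotated exon base before it. They are chr4:33132306-33132520 (+) for Gabrr1, chr4:33062862-33062998 (+) for Gabrr2 and chr7:25072370-25072619 (-) for Grik5. The Gabrr2 window lies inside the span of the gene in the deposited table, chr4:33057712-33095865, and precedes a RefSeq start within it. Capitals mark TAATCC or, on the other strand, GGATTA, the core bound by the photoreceptor and bipolar cell factors CRX and OTX2.
Gabrr1: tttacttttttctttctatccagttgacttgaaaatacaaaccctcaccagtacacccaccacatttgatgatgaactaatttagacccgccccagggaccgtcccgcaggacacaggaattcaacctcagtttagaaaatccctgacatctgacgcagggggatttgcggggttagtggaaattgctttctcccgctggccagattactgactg
Gabrr2: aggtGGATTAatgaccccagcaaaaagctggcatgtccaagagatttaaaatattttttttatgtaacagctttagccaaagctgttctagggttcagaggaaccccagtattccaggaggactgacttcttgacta
Grik5: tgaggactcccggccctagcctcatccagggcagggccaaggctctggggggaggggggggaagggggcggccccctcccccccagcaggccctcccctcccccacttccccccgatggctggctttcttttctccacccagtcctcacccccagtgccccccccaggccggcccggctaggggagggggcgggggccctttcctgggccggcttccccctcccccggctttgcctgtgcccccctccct

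Shares of bases and motifs were taken over the full 250 bases before each RefSeq start, which for Gabrr1 and Gabrr2 run on past the stretch printed. Over these bases Grik5 is rich in G and C (75.2%), while Gabrr1 (46.0%) and Gabrr2 (47.6%) lie below the median of 52.4% over all 32851 RefSeq windows. The table held windows for 26 of the 40 genes, 33 windows in all, with a median GC content of 58.8%. TAATCC or GGATTA was found in 6.06% of these windows, those of Gabra2 and Gabrr2, and in 6.25% of all windows. TATAAA or TTTATA was found in 12.1% of them (Gabra3, Gabrb2 and Grin3b) and in 12.4% of all. Neither motif overlaps the other. These letters are a description of the windows and not of binding.

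Among the AMPA subunits, which carry most fast excitation, Gria4 was the most abundant at 63.5 ± 6.30 TPM (SD over 4 libraries), followed by Gria2 at 40.1 ± 5.61, Gria1 at 33.1 ± 4.27 and Gria3 at 24.3 ± 1.91. The ranges of Gria2 and Gria1 overlapped, while Gria4 lay above and Gria3 below all libraries of their neighbours in this order. Gria4 gave 39.4% ± 1.27 of the summed AMPA TPM (SD, n = 4), between 38.1% and 40.9% in the single libraries. All 4 AMPA genes were higher in pair A and lower in pair B.

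Gria2 encodes the subunit that makes AMPA channels impermeable to calcium (chr3:80682904-80803204). It had 2193 counts in NC-A, 2406 in anti-A, 3059 in NC-B and 2496 in anti-B. In CPM these were 136, 141, 169 and 132 in the same order, so that NC-B was high and the other 3 lay close together. At -0.16 (standard error 0.11, adjusted p = 0.989), its log2 fold change was the lowest of the 39 genes. The ratio in pair A was 0.05, with a 95% exact binomial interval for counting error of -0.03 to 0.13, and in pair B -0.36, with an interval of -0.43 to -0.28.

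For Gria4 (chr9:4417893-4796247), a subunit with rapid channel closing, the counts were 1947 in NC-A, 2295 in anti-A, 2400 in NC-B and 2134 in anti-B. In that order its levels were 121, 134, 133 and 113 CPM, so the anti-miR-124 group held both the highest and the lowest library. Gria1 (chr11:57011571-57330244), a subunit known from synaptic plasticity, had 954 counts in NC-A, 1156 in anti-A, 1291 in NC-B and 1086 in anti-B. Its levels of 59.2, 67.7, 71.5 and 57.6 CPM overlapped between the groups, with anti-B lowest. Gria3 (chrX:41401118-41678601) moved least of the 4, with 669 counts in NC-A, 747 in anti-A, 830 in NC-B and 814 in anti-B, and both of its pair intervals included 0. On the log2 scale the fold changes were -0.04 (standard error 0.10) for Gria4, -0.06 (0.12) for Gria1 and -0.01 (0.08) for Gria3.

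The kainate family, whose receptors serve among others the OFF bipolar cells, had the flattest member of the set. Grik5 (chr7:25009849-25072369) was at 93.3 ± 4.22 TPM and gave 57.3% ± 1.40 of the summed kainate TPM. Its counts were 1820 in NC-A, 1947 in anti-A, 2060 in NC-B and 2134 in anti-B, which came to 113, 114, 114 and 113 CPM. No library stood out. Between the groups the log2 fold change was 0.001 (standard error 0.07), with ratios of 0.01 (interval -0.08 to 0.11) in pair A and -0.01 (-0.10 to 0.08) in pair B.

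Grik1, the kainate subunit known from OFF bipolar cells, behaved otherwise. It had 862 counts in NC-A, 1051 in anti-A, 1174 in NC-B and 906 in anti-B, with log2 ratios of 0.20 (interval 0.07 to 0.33) in pair A and -0.44 (-0.56 to -0.31) in pair B. Anti-B was the lowest library, and the groups overlapped. Grik3 and Grik2 were nearly level in pair B, at ratios of -0.001 and 0.06, and above 0 in pair A, at 0.13 and 0.09. Grik4, the other high-affinity subunit and the least abundant of the family at 3.62 TPM, had ratios of -0.22 and 0.10, and both intervals included 0. By level, the 5 kainate genes were ordered Grik5, Grik1, Grik3, Grik2 and Grik4, and no neighbours in this order overlapped in range.

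The delta receptors, which bind synaptic organizers rather than open to glutamate, were represented by Grid1 at 10.4 ± 1.13 TPM. Grid1 (chr14:34820003-35583387) had 337 counts in NC-A, 416 in anti-A, 368 in NC-B and 366 in anti-B, or 20.9, 24.4, 20.4 and 19.4 CPM. Anti-A was the high library, and the groups overlapped. With a log2 fold change of 0.08 (standard error 0.13) it did not pass the test.

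**Figure D2:**
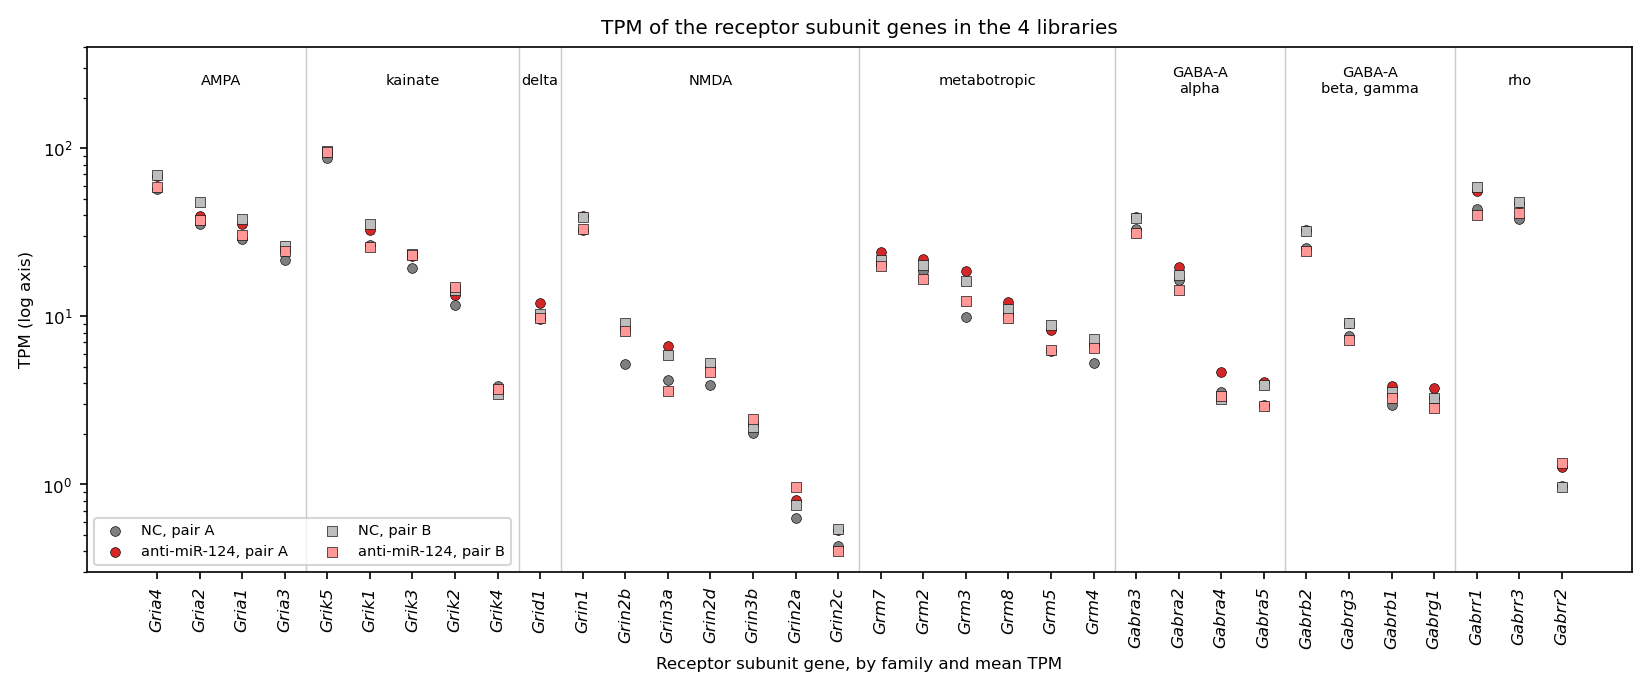
Level of 34 receptor subunit genes in TPM on a log axis, grouped by family and ordered by mean, with 1 point per library (circles pair A, squares pair B, grey NC, red anti-miR-124). Grik5 at 93.3 TPM is the highest and Grin2c at 0.48 TPM the lowest gene drawn, and Gabra6, at 0 counts, is left out.

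In the NMDA family, the obligatory subunit Grin1 was at 36.1 ± 3.71 TPM and made up 63.3% ± 2.12 of the summed TPM, between 62.1% and 66.5%. Grin2b (7.73 ± 1.74 TPM), Grin3a (5.10 ± 1.44) and Grin2d (4.70 ± 0.59) followed with overlapping ranges, and Grin3b (2.24), Grin2a (0.79) and Grin2c (0.48) were lower. Grin1 (chr2:25291177-25319199) had 757 counts in NC-A, 906 in anti-A, 929 in NC-B and 829 in anti-B, which is 47.0, 53.1, 51.4 and 44.0 CPM. The anti-miR-124 libraries were thus at the top and at the bottom, and the log2 fold change was -0.02 (standard error 0.11). The exons of Grin1 share 29.8% of their length with the antisense gene Grin1os, which had 183 to 253 counts, and the sources used here do not say whether strand was used in the counting.

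Grin2b and Grin2a encode the glutamate-binding subunits that are exchanged as many neurons mature. Grin2b (chr6:135729795-136173822) had 234 counts in NC-A, 368 in anti-A, 422 in NC-B and 395 in anti-B. NC-A stood low at 14.5 CPM, while the other 3 lay between 21.0 and 23.4 CPM, so the groups overlapped. Its log2 fold change was 0.16 (standard error 0.21), with a ratio of 0.57 in pair A (interval 0.33 to 0.81) and of -0.16 in pair B (-0.36 to 0.04).

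Grin2a (chr16:9577039-9996500) had 39 counts in NC-A, 49 in anti-A, 48 in NC-B and 64 in anti-B. Both anti-miR-124 libraries, at 2.87 and 3.40 CPM, lay above both NC libraries, at 2.42 and 2.66 CPM. A log2 fold change of 0.30 (adjusted p = 0.989, standard error 0.27) did not pass the test, and the counting intervals of both pairs included 0. The TPM ratio of Grin2b to Grin2a was 8.28 in NC-A, 10.4 in anti-A, 12.1 in NC-B and 8.52 in anti-B. It went up with the antagomir in pair A and down in pair B. As it rests on 39 to 64 counts of Grin2a and has no interval, these directions are uncertain.

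Grin3a, a subunit that lowers calcium entry, had the widest swing between the pairs of the NMDA genes. It had 174 counts in NC-A, 272 in anti-A, 250 in NC-B and 159 in anti-B, with log2 ratios of 0.56 (interval 0.28 to 0.84) in pair A and -0.71 (-1.01 to -0.42) in pair B. Anti-A was its highest and anti-B its lowest library. Grin2d and Grin2c had the same signs, with ratios of 0.25 and -0.16 for Grin2d and 0.19 and -0.43 for Grin2c. Their counting intervals included 0 in both pairs, and the libraries of Grin2c held 24 to 31 counts. Grin3b was higher in both pairs, at ratios of 0.05 and 0.17, with 41 to 53 counts. Its exons share 27.9% of their length with Tmem259 on the opposite strand, a gene with 1475 to 1988 counts, so its values are uncertain.

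The metabotropic receptors were spread more evenly. Grm7, found on bipolar cell terminals, was at 21.6 ± 1.92 TPM, Grm2 at 19.4 ± 2.29, Grm3 at 14.3 ± 3.94, Grm8 at 10.8 ± 1.01, Grm5 at 7.42 ± 1.35 and Grm4 at 6.44 ± 0.87. Grm7, Grm2, Grm3 and Grm8 each overlapped the next in range, as did Grm5 and Grm4. All 7 genes of the family were higher in pair A and lower in pair B. Grm7 (chr6:110645458-111567230) had 818 counts in NC-A, 961 in anti-A, 897 in NC-B and 866 in anti-B. The groups overlapped, anti-A being highest and anti-B lowest in CPM, with a log2 fold change of 0.02 (standard error 0.11). It gave between 22.6% and 25.8% of the summed metabotropic TPM.

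Grm3 (chr5:9485236-9725352), a receptor of the group that inhibits cyclic AMP, had 186 counts in NC-A, 345 in anti-A, 313 in NC-B and 247 in anti-B. In CPM these were 11.5, 20.2, 17.3 and 13.1, so each group held one high and one low library. The ratio in pair A was 0.81 (interval 0.55 to 1.07), the highest of the 39 genes, and in pair B it was -0.40 (-0.65 to -0.16). Over both pairs the log2 fold change was 0.20 (adjusted p = 0.989, standard error 0.26). Grm5, a receptor that acts through calcium release, was next in swing, at 0.31 and -0.48. The ratios of Grm2, Grm4 and Grm8 lay between 0.13 and 0.25 in pair A and between -0.28 and -0.17 in pair B.

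GABA-A channels hold alpha, beta and gamma subunits. Among the alpha genes, Gabra3 was at 35.5 ± 3.74 TPM, Gabra2 stood lower at 17.0 ± 2.23 TPM, and Gabra4 and Gabra5 were low at 3.71 and 3.47 TPM. Gabra3 (chrX:72432676-72656890) had 710 counts in NC-A, 822 in anti-A, 842 in NC-B and 723 in anti-B. Its levels were 44.1, 48.1, 46.6 and 38.4 CPM, with the anti-miR-124 group again at the top and the bottom. A log2 fold change of -0.07 (standard error 0.12) was within the spread.

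Gabra2 (chr5:70959997-71095849), an alpha subunit that many neurons carry early in life, had 350 counts in NC-A, 411 in anti-A, 384 in NC-B and 326 in anti-B. In CPM these were 21.7, 24.1, 21.3 and 17.3. Here too anti-A was highest and anti-B lowest, with a log2 fold change of -0.06 (standard error 0.16). The ratio was 0.15 in pair A (interval -0.06 to 0.36) and -0.30 in pair B (-0.52 to -0.08). Gabra4 was higher in both pairs, at 0.29 and 0.07, and Gabra5 went opposite ways, at 0.34 and -0.41, and all 4 of these intervals included 0.

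Among the beta and gamma genes, Gabrb2 was at 28.6 ± 4.19 TPM and had 1094 counts in NC-A, 1375 in anti-A, 1411 in NC-B and 1134 in anti-B. In CPM anti-A was highest and anti-B lowest. Its ratios were 0.25 (interval 0.13 to 0.36) in pair A and -0.38 (-0.49 to -0.26) in pair B, both outside the counting error. Gabrg3, Gabrb1 and Gabrg1 were at 8.31, 3.40 and 3.29 TPM, and all 6 genes of the family were higher in pair A and lower in pair B.

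The rho subunits form the slowly closing GABA receptors on which bipolar cell terminals depend. Gabrr1 (chr4:33132556-33163588) was at 49.5 ± 9.04 TPM and Gabrr3 at 43.5 ± 4.98 TPM, with overlapping ranges, while Gabrr2 (chr4:33057712-33095865) was at 1.14 ± 0.20 TPM. Gabrr1 had 615 counts in NC-A, 782 in anti-A, 850 in NC-B and 613 in anti-B, or 38.2, 45.8, 47.1 and 32.5 CPM. NC-B was highest and anti-B lowest. The log2 fold change was -0.12 (standard error 0.18), with a ratio of 0.26 in pair A (interval 0.11 to 0.42) and -0.53 in pair B (-0.69 to -0.38), both outside the counting error. The share of Gabrr1 in the rho TPM ran from 48.8% to 54.4%, and it was lowest in anti-B.

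Gabrr2 had 15 counts in NC-A, 19 in anti-A, 15 in NC-B and 22 in anti-B. Both anti-miR-124 libraries were above both NC libraries, by a handful of counts. A log2 fold change of 0.37 (adjusted p = 0.989, standard error 0.36) was the highest of the 39 genes, and the intervals of both pairs, -0.80 to 1.34 and -0.52 to 1.54, included 0. Gabrr3 had 292 counts in NC-A, 361 in anti-A, 379 in NC-B and 339 in anti-B, with ratios of 0.22 and -0.22.

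**Figure D3:**
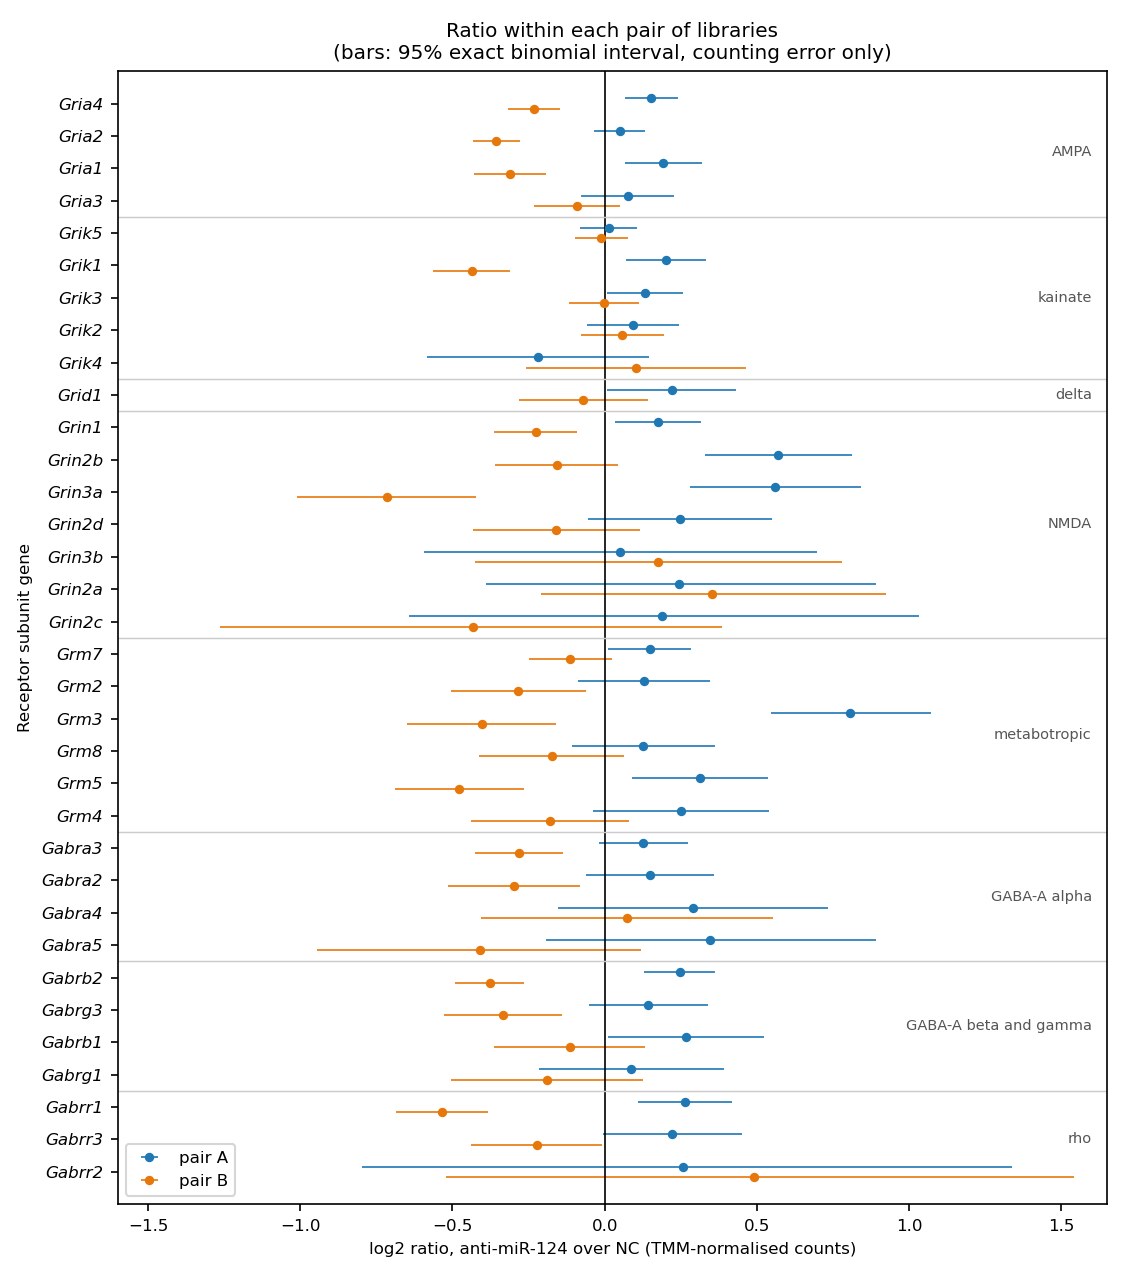
Log2 ratio of anti-miR-124 over NC for 34 subunit genes in pair A (blue) and pair B (orange), with 95% exact binomial intervals that cover counting error only, ordered by family and mean level. Of the genes drawn, 14 intervals lie above 0 in pair A and 15 lie below 0 in pair B (all genes tested: 14.3% and 15.5%), and Grik5 lies at 0 in both.

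By family, the median ratio was 0.11 in pair A and -0.27 in pair B for the 4 AMPA genes, 0.25 and -0.16 for the 7 NMDA genes, 0.15 and -0.30 for the 6 beta and gamma genes, and 0.26 and -0.22 for the 3 rho genes. Of the 5 tested GABA-A alpha genes, 4 were higher in pair A and lower in pair B. The kainate genes were lowest in pair A at 0.09 and near 0 in pair B at -0.001. All 8 families had a median above 0 in pair A and below 0 in pair B. The counting interval lay above 0 for 18 of 39 genes in pair A and below 0 for 18 of 39 in pair B (46.2% each), against 14.3% and 15.5% of all genes, whose depth differs from gene to gene.

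**Figure D4:**
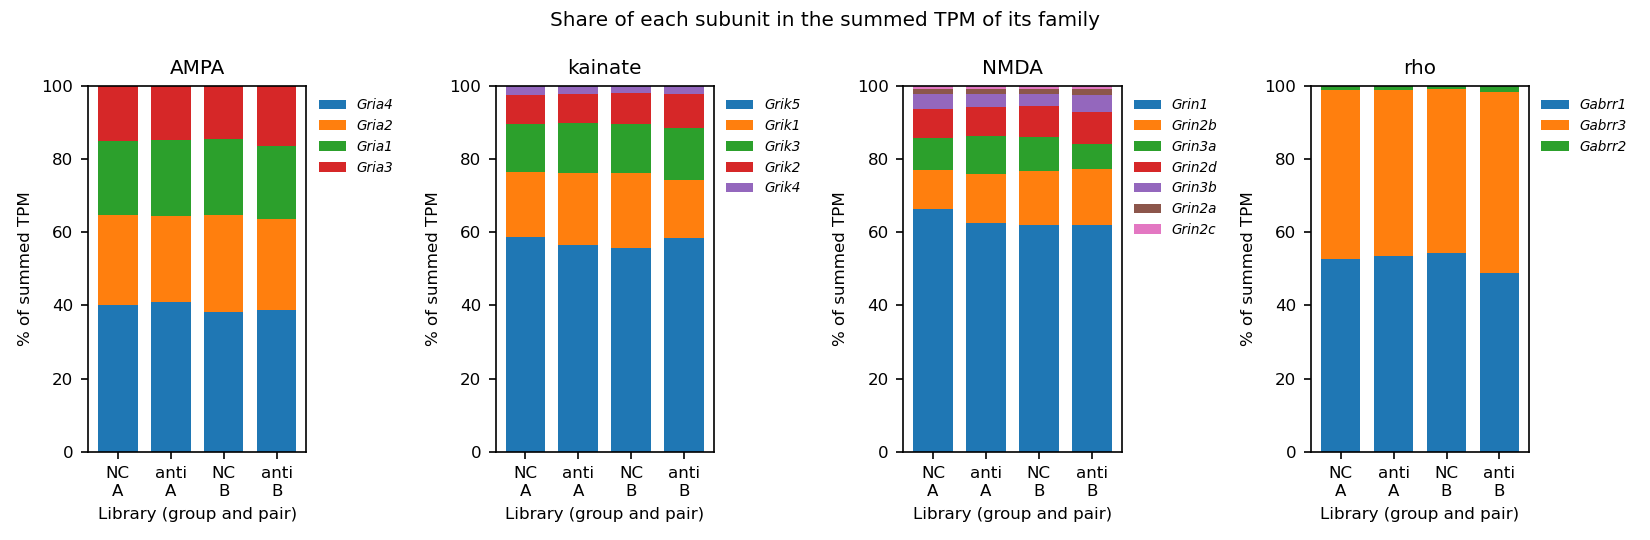
Share of each subunit in the summed TPM of the AMPA, kainate, NMDA and rho families, in percent, with 1 bar per library (NC and anti-miR-124 of pair A, then of pair B). The bars of a family look alike, with Gria4 at 38.1% to 40.9% of the AMPA sum and Gabrr1 at 48.8% to 54.4% of the rho sum.

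Some GABA receptor genes lie side by side in the genome, among them Gabrg1, Gabra2, Gabra4 and Gabrb1 within chr5:70751047-72149572. Their levels were unequal, from 3.29 TPM for Gabrg1 to 17.0 TPM for Gabra2. Their ratios ran from 0.09 to 0.29 in pair A and from -0.30 to 0.07 in pair B. Gabrr1 and Gabrr2, 2 neighbours on chromosome 4, had ratios of -0.53 and 0.49 in pair B. The counting interval of Gabrr2 there, -0.52 to 1.54, included 0, so its direction is uncertain.

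The other genes of glutamate and GABA transmission were examined in 5 lists of 61 genes, of which 60 were tested. In edgeR's test 0 of the 60 passed at an adjusted p under 0.05, as did 0.0% of all genes. At an unadjusted p under 0.05 the count was 0 in either direction, against 3.91% of all genes. The median ratios of the 60 genes were 0.15 and -0.12 (pair A, then pair B). Of these, 39 were higher in pair A and lower in pair B, against 25.5% of all genes. Over all genes, 48.2% were higher in pair A and 49.4% were lower in pair B. Among the auxiliary subunits of glutamate receptors (Cacng, Cnih, Neto and Shisa genes and Gsg1l), 14 of 14 were higher in pair A and 10 of 14 lower in pair B. Of the 5 glycine receptor subunits, 5 were higher in pair A and 4 lower in pair B, with medians of 0.28 and -0.25. Of the 18 scaffold genes of synapses, 16 were higher in pair A and 14 lower in pair B. The 17 genes of transmitter synthesis and transport were more mixed, with 12 higher in pair A and 9 lower in pair B and medians of 0.05 and -0.01. Of the 6 tested receptor genes outside the symbol rule (Grm6, Gabrd, Gabre, Gabrq, Gabbr1 and Gabbr2), 4 were higher in pair A and 4 lower in pair B. Grm6, the receptor by which ON bipolar cells sense photoreceptor glutamate, had 1868 counts in NC-A, 2047 in anti-A, 2526 in NC-B and 1989 in anti-B. NC-B was its high library, as for Gria2, and its log2 fold change was -0.18 (standard error 0.11).

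Ganglion cell markers, and most bipolar and amacrine cell markers, moved with the pairs, while horizontal cell markers did not. All 8 ganglion cell markers were higher in pair A and lower in pair B, against 25.5% of all genes. These markers, Rbpms, Pou4f1, Pou4f2, Nefl, Nefm, Sncg, Slc17a6 and Thy1, had medians of 0.45 and -0.48. None was at 0 in any library, and their summed level was 792 CPM in NC-A, 1106 in anti-A, 933 in NC-B and 686 in anti-B. The bipolar markers followed in 6 of 7 genes, with medians of 0.13 and -0.31, and the amacrine markers in 4 of 6, with medians of 0.09 and -0.06. Some of these markers were also counted in the transmission lists above: Slc17a6 (ganglion), Grm6 (bipolar), and Gad1 and Slc32a1 (amacrine). The part of the marker shifts in the subunit ratios was not tested.

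Other cell types took other courses, apart from the pigment epithelium list. Of its 5 tested genes, 4 were higher in pair A and lower in pair B, against 25.5% of all genes. That list summed to 24.2 CPM in NC-A, 61.2 in anti-A, 40.3 in NC-B and 38.0 in anti-B. The 4 horizontal cell markers were higher in both pairs, against 22.8% of all genes. Lhx1 (log2 fold change 0.44, standard error 0.17) and Onecut2 (0.23, 0.08) among them had unadjusted p-values of 0.036 and 0.020 and adjusted p-values of 0.989. All 5 cone markers were lower in both pairs, against 24.0% of all genes. Their medians were -0.51 and -1.12, and all 5 had unadjusted p-values under 0.05, of which none held after adjustment. The summed cone markers were at 285 CPM in NC-A, 206 in anti-A, 303 in NC-B and 148 in anti-B. Muller glia markers had medians of -0.003 and 0.01, with Aqp4 apart at -0.14 and 0.74. Rod markers had medians of 0.06 and 0.08 but went both ways, with Gnat1 lower in both pairs (log2 fold change -0.38, standard error 0.08) and Nrl higher in both (0.16, 0.04). Their unadjusted p-values of 0.0028 and 0.011 did not hold after adjustment (0.989). Microglia markers had a median of -0.09 in pair A and 1.5 in pair B, where their sum was 92.5 CPM in NC-B and 221 in anti-B, and 2 of the 10, C1qc and Csf1r, had an unadjusted p under 0.05. The 7 tested genes of reactive gliosis were all lower in pair A and higher in pair B, the order that 27.8% of all genes had, and the list summed to 705 CPM in NC-A, 508 in anti-A, 499 in NC-B and 973 in anti-B. The sum was thus high in the 2 libraries in which the summed subunits were low, while Serpina3n, Lcn2 and Stat3 stood out in anti-B alone. The part of these shifts in the subunit ratios was not tested.

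**Figure D5:**
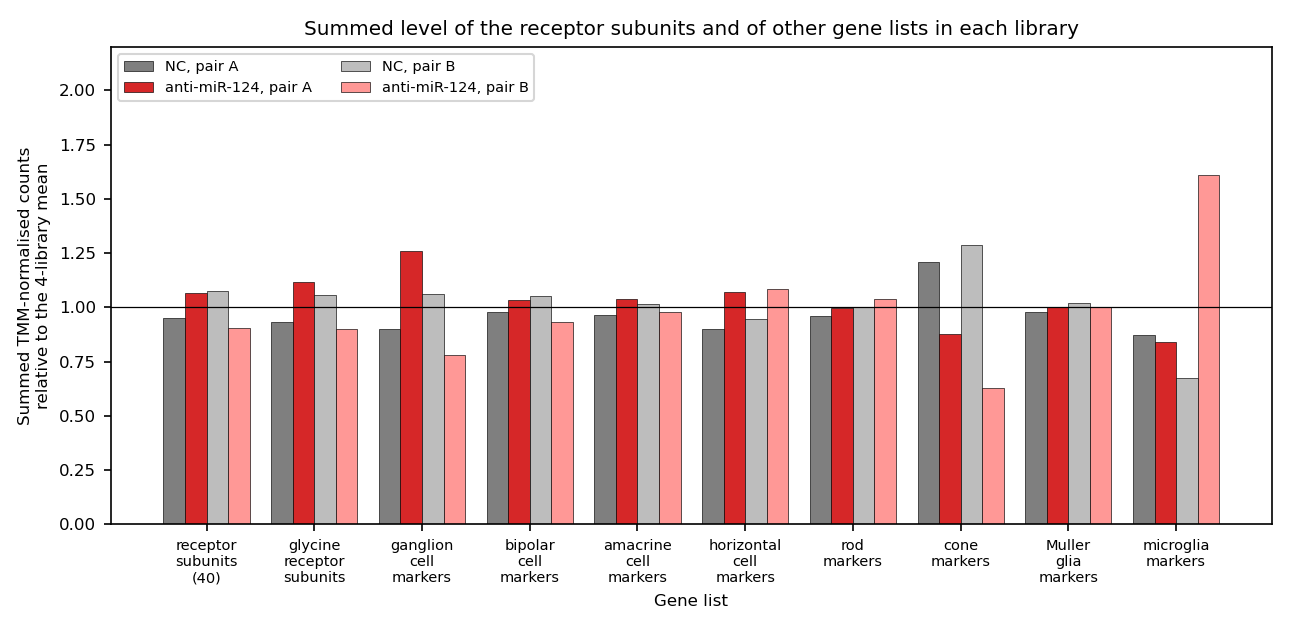
Summed TMM-normalised counts of the 40 subunit genes and of 9 other gene lists in each library, divided by the mean of the 4 libraries. The subunit genes, glycine receptor subunits and ganglion and bipolar cell markers are higher in anti-A than in NC-A and lower in anti-B than in NC-B, while cone markers are lower in both and microglia markers are high in anti-B.

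Which libraries were included decided the sign of most fold changes. Without anti-A, 32 of the 39 subunit genes were lower with the antagomir (50.7% of all genes in that fit), with a median log2 fold change of -0.16, and 9 had an unadjusted p under 0.05 (among them Gabra2, Gabra3, Gabrb2, Gabrg3, Gabrr1, Grik1 and Grin3a, all lower), or 23.1% against 10.1% of all genes, with a smallest adjusted p of 0.149. Without anti-B, 36 of 39 were higher, against 49.7% of all genes, with a median of 0.09 and only Grm3 at an unadjusted p under 0.05 (5.2% of all genes). Without NC-A, which carries the lens transcripts, 30 were lower, against 49.4% of all genes, with a median of -0.10 and Gria2 under 0.05 (1.78% of all genes). Without NC-B 29 were higher, against 51.8% of all genes, with a median of 0.06 and Grin2b under 0.05 (2.76% of all genes). In each of these fits 0 subunit genes had an adjusted p under 0.05. Of the 15 subunit genes given here under the naming rule, 13 changed sign in at least 1 of them, and Gabrr2 and Grin2a did not.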

How the data were processed

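Retinal RNA of 2 anti-miR-124 and 2 NC libraries was sequenced. The deposited table gives raw read counts for each gene and the gene lengths, as counted by the authors, and 4 columns of RPKM values, which were not used. The submitters' processing notes name HISAT2 and mm9, while 99.8% of 36837 matched genes lay at their GRCm38.p6 position, so GRCm38 is used for coordinates. The counting tool is not given in the sources used here.

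A column went to its group by the eye in its name, and columns with the same number formed a pair. All genes were fitted with edgeR 4.0.16 (R 4.3.3) by the quasi-likelihood test, two-sided, with TMM normalisation, its filter on low counts and Benjamini-Hochberg adjustment at a threshold of 0.05. TPM was computed from counts and lengths. Ratios within a pair were taken on TMM-normalised counts, with 95% exact binomial intervals, which cover counting error only, as reads without molecular identifiers are not independent molecules. The smallest exact two-sided permutation p for 2 against 2 libraries is 0.333, so single sums and shares were not tested. The fit was tested on simulated data. No libraries were duplicates (chi-square per degree of freedom at least 3.44).

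Alternatives were other normalisations, no filter, DESeq2 1.42.0, a replicate block and leaving out each library. The named subunit genes are the most abundant of each family, the 3 highest and 3 lowest fold changes, the 4 AMPA genes and Grin2a, Grin2b and Gabra2. The values of 5 member genes, including some that this rule selects, are not reported here. The other members, and genes of the other lists beyond defining markers and those with an unadjusted p under 0.05, were given as ranges or chosen after their values were seen. The members and lists were chosen with earlier results of these data known. Matches to the microRNA in transcripts were not analysed here. Python 3.11.15, numpy 2.4.6, pandas 2.3.3 and scipy 1.17.1 were used for the other steps.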

Additional observations from a re-analysis of the deposited data

How the results depend on the processing

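The count of subunit genes with an adjusted p under 0.05 was 0 under every alternative run. Over all genes, 0 passed in the fit reported, 33 with DESeq2, 379 without the filter on low counts and between 0 and 256 when 1 library was left out. Subunit genes with an unadjusted p under 0.05 numbered 0 in the fit reported and between 1 and 9 when 1 library was left out, beside 694 of all genes in the fit reported and 333 to 1893 in the others. Grik5 had a log2 fold change of -9.93e-05 with upper quartile normalisation. Under the other scalings, 32 or 33 subunit genes were higher in pair A and lower in pair B. TPM moved the median of all genes in pair A to 0.10, through the lens transcripts of its NC library, and without those it was 0.002.

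Leaving out 1 library, the log2 fold changes ran from -0.309 to 0.00483 for Gria2, -0.19 to 0.0806 for Gria1, -0.165 to 0.0876 for Gria4, -0.0796 to 0.0648 for Gria3, -0.00479 to 0.011 for Grik5, -0.0893 to 0.243 for Grid1, -0.16 to 0.11 for Grin1, -0.14 to 0.55 for Grin2b, -0.14 to 0.53 for Grm3, -0.13 to 0.17 for Grm7, -0.31 to 0.17 for Gabra2, -0.243 to 0.0904 for Gabra3 and -0.39 to 0.11 for Gabrr1. Gabrr2 (0.29 to 0.45) and Grin2a (0.18 to 0.42) kept their sign.

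Shares of raw counts, which favour long genes, were 33.2% for Gria4 and 38.3% for the longer Gria2, so their order depends on gene length. The other shares were 39.3% for Grik5, 49.0% for Grin1, 32.0% for Grm7, 36.0% for Gabra3 and 66.3% for Gabrr1.

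With a replicate block on the shared number, 376 genes had an unadjusted p under 0.05 against 694 without it, with 0 adjusted calls in both. Libraries with the same number tended only weakly to deviate from their group means in opposite ways, with a correlation of -0.167 across genes. A crossed pairing, chosen after seeing the data, gave 160 adjusted calls over all genes and 1 subunit gene at an unadjusted p under 0.05, beside 1306 of all genes. For Gabrr2, under 35 counts in each library, counting error left the ratio in pair A between -0.80 and 1.34.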
